A study of Rattus norvegicus with 7 samples.

Results

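The genes described here encode enzymes that handle galactose and the polyols made from it: Akr1b1, Sord, Galk1, Galt, Galm, Ugp2, Pgm1 and A3galt2. They were chosen by name, and each was read on the probe set that carries its symbol in the platform annotation, of which each has 1. Of the 8, 7 have such a probe, out of 18166 genes with a probe of their own, and Galk1, the galactokinase that starts the breakdown of galactose, was not analysed here. None of the 7 was at a log2 signal of 5 or below in every array, the level under which the study left genes out. Sord and Galt were close to that line, with 2 arrays above 5 each. Those of Galt were both Galactose arrays, so that this gene was kept through the group in which its signal was high.

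Lenses of 6-week-old male Sprague Dawley rats were kept whole in culture medium, and RNA was measured on 1 array per sample. The 2 Glutamate arrays came from lenses cultured for 6 days with 30 mM galactose, the last 3 days of which also with 20 mM glutamate. The 3 Galactose arrays came from 6 days with 30 mM galactose and no glutamate. The 2 Control arrays came from lenses given sterile water and no galactose, of which 1 was cultured for 4 days (Control Day 4) and 1 for 6 days (Control Day 6), so that culture time and array cannot be told apart within Control. The sources used here do not say whether the arrays of a group came from separate animals, and each p therefore measures the spread between these samples only.

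Galactose is normally broken down by the Leloir pathway. Galm turns the sugar to its alpha form, Galk1 adds a phosphate, and Galt exchanges that galactose phosphate with UDP-glucose, giving glucose 1-phosphate and UDP-galactose. Pgm1 passes glucose 1-phosphate on to glycolysis, and Ugp2 makes UDP-glucose from it. When galactose is abundant, aldose reductase, the product of Akr1b1, reduces it to galactitol at the cost of NADPH. Galactitol leaves cells slowly and is a poor substrate for Sord, the dehydrogenase that oxidises sorbitol to fructose, and its accumulation in lens fibres is the textbook basis of sugar cataract. A3galt2 belongs to the use of galactose rather than its breakdown: in the rat it transfers galactose from UDP-galactose to lactosylceramide and so makes the glycolipid isoglobotriaosylceramide.

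Values are log2 signals after the Robust Multi-array Average, so that a difference of 1 is a 2-fold difference. They can be set against each other between arrays for 1 gene, but not between genes. Groups were compared with limma over all 5320 probes with a gene and a signal above 5 in at least 1 array, with Benjamini-Hochberg adjustment, and a gene is called changed at an adjusted p under 0.05. The Control arrays stood apart from each other: 28.6% of the 5320 probes were at least 2-fold apart between them, and 25.4% were at least 2-fold lower and 3.18% at least 2-fold higher in Control Day 6. Differences between Galactose and Control are therefore given with both Control arrays and against each one alone. A fit against 1 Control array takes the spread of that group from the other groups, so its adjusted p is a description only. Lens fibre markers were above 5 in all 7 of the 7 genes with a probe, with a mean log2 signal of 11.58 and 11.66 in Glutamate, 11.39 to 11.43 in Galactose, and 11.68 and 11.69 in Control. All 6 lens epithelial markers were above 5 in at least 1 array, and their mean was 6.47 and 6.79 in Glutamate, 5.73 to 6.90 in Galactose, and 6.87 and 7.35 in Control. Of the 6 pigment cell and the 6 leukocyte markers 1 each was above 5 (Mitf and Cd68), and none of the 6 retinal, the 6 fibroblast or smooth muscle and the 2 vessel markers with a probe was above 5.

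None of the 7 genes was called changed between Galactose and Control (0.094% of all probes were), between Glutamate and Galactose (0.0%) or between Glutamate and Control (0.0%). The gene farthest from 0 was A3galt2, 3.19-fold higher on average in Galactose than in Control and 3.36-fold lower in Glutamate than in Galactose, with the same 3 Galactose arrays behind both values. Akr1b1 and Ugp2 differed most between the 2 Control arrays, and their difference between Galactose and Control changed sign with the Control array used. A3galt2 and Galt were the 2 genes of the 7 whose Galactose arrays all lay above every other array, a pattern found in 11.8% of the 5320 probes. The bases of their promoter windows that lie before the first annotated base of the gene, 221 for Galt and 163 for A3galt2, are printed here because these genes share that order of arrays. They are RefSeq sequence of the rat assembly GRCr8, chr5:61722650-61722870 (plus strand) for Galt and chr5:146385562-146385724 (plus strand) for A3galt2, with matches to the motifs searched in capitals, the GC box of Galt on the other strand.
Galt: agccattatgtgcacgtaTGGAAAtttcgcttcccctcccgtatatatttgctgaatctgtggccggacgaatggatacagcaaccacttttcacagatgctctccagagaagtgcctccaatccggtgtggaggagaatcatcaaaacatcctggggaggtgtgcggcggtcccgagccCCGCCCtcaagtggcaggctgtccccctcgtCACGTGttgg
A3galt2: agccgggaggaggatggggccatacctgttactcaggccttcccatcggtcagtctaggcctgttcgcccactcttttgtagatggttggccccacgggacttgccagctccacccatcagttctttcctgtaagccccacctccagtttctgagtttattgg

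The windows hold 300 bases each, placed by the table on 1 start per gene, which need not be the outermost annotated base: those of Galm, Pgm1 and Galk1 hold 250 bases before that base and 50 after, and those of Sord and Ugp2 lie wholly inside the annotated gene. The motifs searched on both strands of the whole windows were TGGAAA (the core of the tonicity element), CACGTG (an E box), TGACNNNGC (the antioxidant response element), TGANTCA (the AP-1 site, whose matches can overlap those of the element before it) and GGGCGG (the GC box). The shares of all 33469 rat windows with a match were 22.7%, 6.42%, 12.1%, 7.33% and 33.1% in that order. In the part shown, Galt had 1 match each to the tonicity element core, the E box and the GC box, and A3galt2 had none. The whole window of A3galt2 had 1 match to TGGAAA, which does not lie wholly within the part shown, and the window of Galm also had 1. CACGTG was found in the windows of Galt and Galk1, among the 7 genes of the 8 with a window in the table. These matches are letters in the windows and were not tested as sites.

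**Figure D1:**
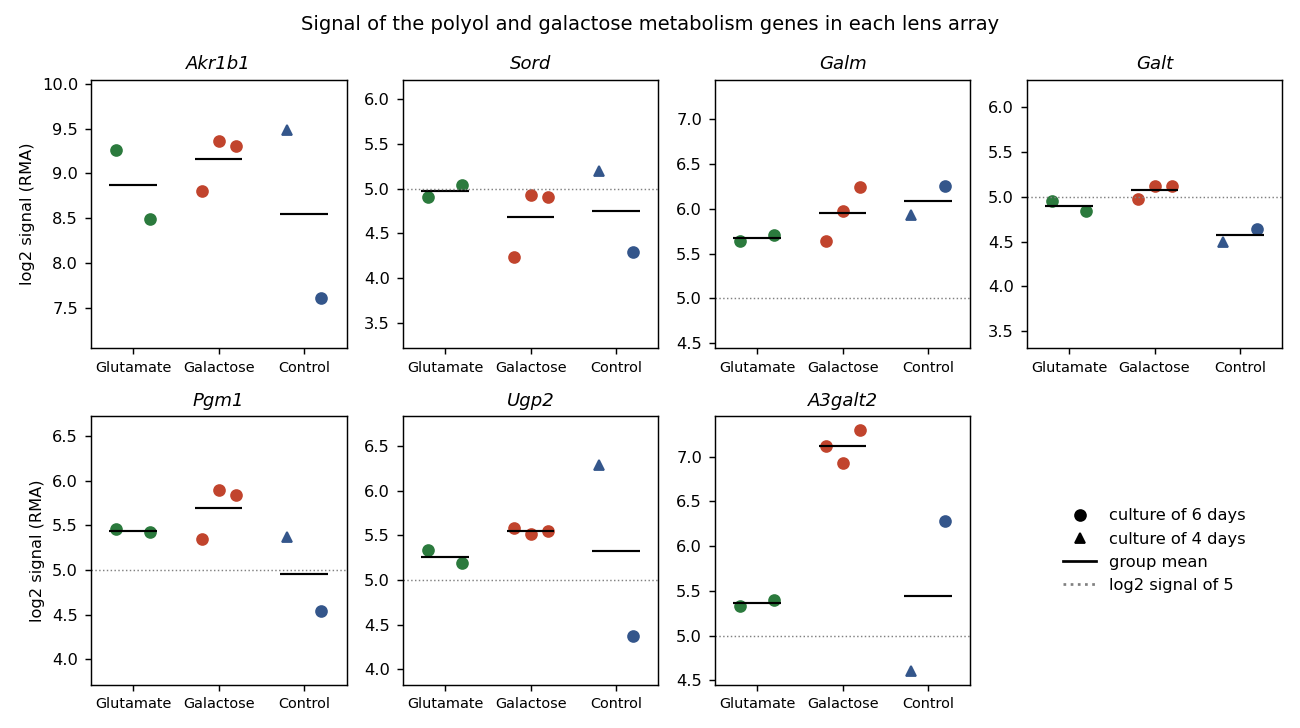
Log2 signal (RMA) of each gene in each lens array, with Glutamate, Galactose and Control from left to right. Circles are cultures of 6 days, triangles the culture of 4 days, bars group means and the dotted line a log2 signal of 5, and every panel spans 3 log2 units. For A3galt2 the 3 Galactose arrays, between 6.93 and 7.30, lie above all others, whereas for Akr1b1 and Ugp2 the 2 Control arrays lie on either side of the other 5.

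Akr1b1, the gene of aldose reductase, had log2 signals of 9.26 and 8.49 in the Glutamate arrays, 8.80, 9.37 and 9.31 in the Galactose arrays, and 9.49 (Day 4) and 7.60 (Day 6) in Control. All Galactose and Glutamate arrays lay between the 2 Control arrays. Glutamate averaged 8.87 ± 0.54 (SD, n = 2), Galactose 9.16 ± 0.31 (SD, n = 3) and Control 8.55 ± 1.33 (SD, n = 2). Galactose differed from Control by a log2 fold change of 0.61 (standard error 0.56, 95% interval -0.72 to 1.94, adjusted p = 0.541), and Glutamate from Galactose by -0.28 (95% interval -1.61 to 1.04, adjusted p = 0.975). Glutamate differed from Control by 0.33 (95% interval -1.13 to 1.78, adjusted p = 0.890).

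The sign of the first difference for Akr1b1 followed the Control array. It was 1.55 against Control Day 6 alone (adjusted p = 0.0289, past the threshold) and -0.33 against Control Day 4 alone (adjusted p = 0.706), and after the further quantile normalization 0.75 (adjusted p = 0.0829) and -0.30 (adjusted p = 0.645). In such fits the lone Control array is assumed to vary like the other groups. The related aldo-keto reductases Akr1b7, Akr1b8 and Akr1b10 were at 5 or below in every array.

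Sord, the second enzyme of the polyol pathway, had log2 signals of 4.90 and 5.04 in the Glutamate arrays, 4.23, 4.93 and 4.90 in the Galactose arrays, and 5.20 (Day 4) and 4.29 (Day 6) in Control. The groups overlapped in every comparison. Galactose differed from Control by -0.06 (95% interval -0.88 to 0.77, adjusted p = 0.932) and Glutamate from Galactose by 0.28 (95% interval -0.54 to 1.11, adjusted p = 0.955). Between Glutamate and Control the difference was 0.22 (95% interval -0.68 to 1.13, adjusted p = 0.881). The low Galactose value was that of Galactose 1, and without it the difference from Control was 0.17. Against Control Day 6 alone the difference was 0.40 and against Control Day 4 alone -0.51, and neither was called.

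Galm, the mutarotase of the Leloir pathway, had log2 signals of 5.64 and 5.71 in the Glutamate arrays, 5.64, 5.97 and 6.24 in the Galactose arrays, and 5.94 (Day 4) and 6.25 (Day 6) in Control. Both Glutamate arrays were below both Control arrays and within the range of Galactose. Galactose differed from Control by -0.14 (95% interval -0.72 to 0.43, adjusted p = 0.746), which was -0.30 against Control Day 6 alone and 0.02 against Control Day 4 alone, and Glutamate from Galactose by -0.27 (95% interval -0.85 to 0.30, adjusted p = 0.930). Glutamate differed from Control by -0.42 (95% interval -1.05 to 0.21, adjusted p = 0.756).

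Galt, the uridylyltransferase of the pathway, varied little within groups, with SDs of 0.08 in Glutamate and Galactose and 0.10 in Control. Its log2 signal was 4.95 and 4.84 in the Glutamate arrays, 4.97, 5.12 and 5.12 in the Galactose arrays, and 4.50 (Day 4) and 4.64 (Day 6) in Control. The 3 groups did not overlap, with Galactose highest, Glutamate next and Control lowest, although the lowest Galactose array, at 4.97, and the higher Glutamate array, at 4.95, were almost level. Galactose was above Control by 0.50 (standard error 0.18, 95% interval 0.07 to 0.93, adjusted p = 0.252), and Galt was not called. The difference was 0.57 against Control Day 4 and 0.43 against Control Day 6, on the same side of 0 for both. After the further quantile normalization these values were 0.55 and 0.20. With both Control arrays the difference was then 0.375, and 0.35 after centring on the median. Glutamate differed from Galactose by -0.17 (95% interval -0.60 to 0.26, adjusted p = 0.952) and from Control by 0.33 (95% interval -0.14 to 0.80, adjusted p = 0.755).

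Pgm1, which links glucose 1-phosphate with glycolysis, had log2 signals of 5.46 and 5.43 in the Glutamate arrays, 5.35, 5.89 and 5.84 in the Galactose arrays, and 5.37 (Day 4) and 4.54 (Day 6) in Control. Control Day 6 was lowest, and Galactose 1 lay just below Control Day 4, so that Galactose and Control overlapped. Galactose was above Control by 0.74 (standard error 0.30, 95% interval 0.01 to 1.46, adjusted p = 0.291). Against Control Day 6 alone the difference was 1.15 (adjusted p = 0.025, and 0.0292 with a difference of 0.92 after the further quantile normalization), and against Control Day 4 alone it was 0.32. Between Glutamate and Galactose it was -0.25 (95% interval -0.98 to 0.48, adjusted p = 0.955), and between Glutamate and Control, which did not overlap, 0.49 (95% interval -0.31 to 1.28, adjusted p = 0.756).

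Ugp2, the UDP-glucose pyrophosphorylase, had log2 signals of 5.33 and 5.19 in the Glutamate arrays, 5.59, 5.51 and 5.55 in the Galactose arrays, and 6.28 (Day 4) and 4.38 (Day 6) in Control. Both treated groups were tight, with SDs of 0.10 in Glutamate and 0.04 in Galactose, and lay inside the gap of 1.91 between the Control arrays. Glutamate was below Galactose in every array, by a log2 fold change of -0.29 (95% interval -1.49 to 0.92, adjusted p = 0.974). Galactose differed from Control by 0.22 (95% interval -0.99 to 1.42, adjusted p = 0.811), which was 1.17 against Control Day 6 alone (adjusted p = 0.00883, and 0.0124 with a difference of 0.98 after the further quantile normalization) and -0.73 against Control Day 4 alone (adjusted p = 0.129). Between Glutamate and Control it was -0.07 (95% interval -1.39 to 1.25, adjusted p = 0.980).

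A3galt2, the isoglobotriaosylceramide synthase, had its highest signal in the Galactose arrays, and its Control arrays differed widely. Its log2 signal was 5.33 and 5.40 in the Glutamate arrays, 7.12, 6.93 and 7.30 in the Galactose arrays, and in Control 4.60 on Day 4 and 6.29 on Day 6. Galactose did not overlap with Control or with Glutamate, and the Glutamate arrays, only 0.07 apart, lay between the 2 Control arrays. Glutamate averaged 5.37 ± 0.05 (SD, n = 2), Galactose 7.12 ± 0.18 (SD, n = 3) and Control 5.44 ± 1.19 (SD, n = 2).

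The mean of A3galt2 in Galactose was 3.19-fold that in Control, a log2 fold change of 1.67 (standard error 0.46, 95% interval 0.57 to 2.77; adjusted p = 0.176). In Glutamate it was lower than in Galactose by a log2 fold change of -1.75 (standard error 0.46, 95% interval -2.85 to -0.65; adjusted p = 0.611). Neither comparison called it changed. The study had picked A3galt2 on these same arrays for measurement by RT-qPCR, so that its direction here is not independent evidence. The paper counts A3galt2 among the genes that rose with galactose and fell with glutamate by RT-qPCR, and those measurements were not read here. Glutamate differed from Control by -0.08 (95% interval -1.28 to 1.12), an interval that leaves room for a 2-fold difference either way.

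The Control arrays were 1.68 apart, with Control Day 6 higher. Without Control Day 6, Galactose was above Control Day 4 by 2.51 (adjusted p = 0.0392), and without Control Day 4 it was above Control Day 6, the culture of equal length, by 0.83 (adjusted p = 0.0319), and A3galt2 was called in both fits. The second of these moved with the scaling: after a further quantile normalization of the arrays it was 0.34 (adjusted p = 0.261), against 2.45 (adjusted p = 0.0222) for Control Day 4. Glutamate was below Control Day 6 by a log2 fold change of -0.92 (adjusted p = 0.0444) and above Control Day 4 by 0.76 (adjusted p = 0.307). With the 5 Galactose and Glutamate arrays alone in the fit, the difference between them was again -1.75 (adjusted p = 0.147).

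**Figure D2:**
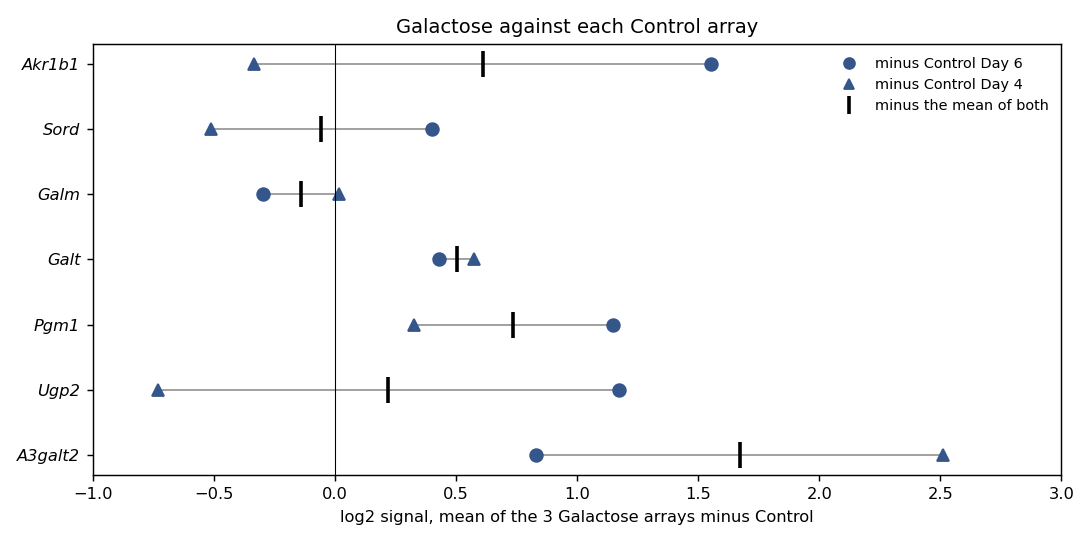
Mean log2 signal of the 3 Galactose arrays minus Control Day 6 (circles), Control Day 4 (triangles) and the mean of both (bars), for each gene. Akr1b1, Sord, Galm and Ugp2 have differences of opposite sign for the 2 Control arrays, while Galt, Pgm1 and A3galt2 are above 0 for both.

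With an unadjusted p below 0.05, Galt, Pgm1 and A3galt2 were higher in Galactose than in Control (3 of 7, where 11.8% of all probes were), and none was lower (5.23%). Galt had passed the level of 5 only in Galactose. Its unadjusted p in limma was 0.107 after the further quantile normalization and 0.156 after centring on the median. A3galt2 alone was lower in Glutamate than in Galactose (1 of 7, against 4.4%), while none was higher (1.13%). The study had picked A3galt2 on these same arrays, so its part in the counts of this paragraph is not independent evidence. Between Glutamate and Control none reached that level (6.62% of all probes). Group means were higher in Galactose than in Control for 5 of the 7 (62.0% of all probes) and lower in Glutamate than in Galactose for 6 of the 7 (64.6%), with Sord as the exception. The median log2 fold change of the 7 was 0.50 between Galactose and Control, where that of all probes was 0.17. That median is the value of Galt itself, which was kept through Galactose arrays, and is a description only. Between Glutamate and Galactose the median of the 7 was -0.27, where that of all probes was -0.11. Galactose arrays lay wholly above Control in 2 of the 7 (21.5% of all probes), namely Galt and A3galt2, and wholly below in none (12.1%). Glutamate arrays lay wholly below Galactose in 3 of the 7 (21.7%), namely Galt, Ugp2 and A3galt2, and wholly above in none (7.76%). Both Glutamate arrays were above both Control arrays for Galt and Pgm1 (13.3% of all probes) and below them for Galm (15.0%). Control Day 6 was the lowest of all arrays for Akr1b1, Ugp2 and Pgm1, as for 45.1% of all probes. In Akr1b1 and Ugp2 the 2 Control arrays enclosed the other 5 with Control Day 4 on top, as in 10.4% of all probes. Against Control Day 6 alone, Galactose differed by 1.55 for Akr1b1, 1.17 for Ugp2, 1.15 for Pgm1 and 0.83 for A3galt2. The differences were 0.43 for Galt, 0.40 for Sord and -0.30 for Galm, and the median of all probes was 0.32. Against Control Day 4 alone the 7 genes were, in that order, at -0.33, -0.73, 0.32, 2.51, 0.57, -0.51 and 0.02, and the median of all probes was -0.02.

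**Figure D3:**
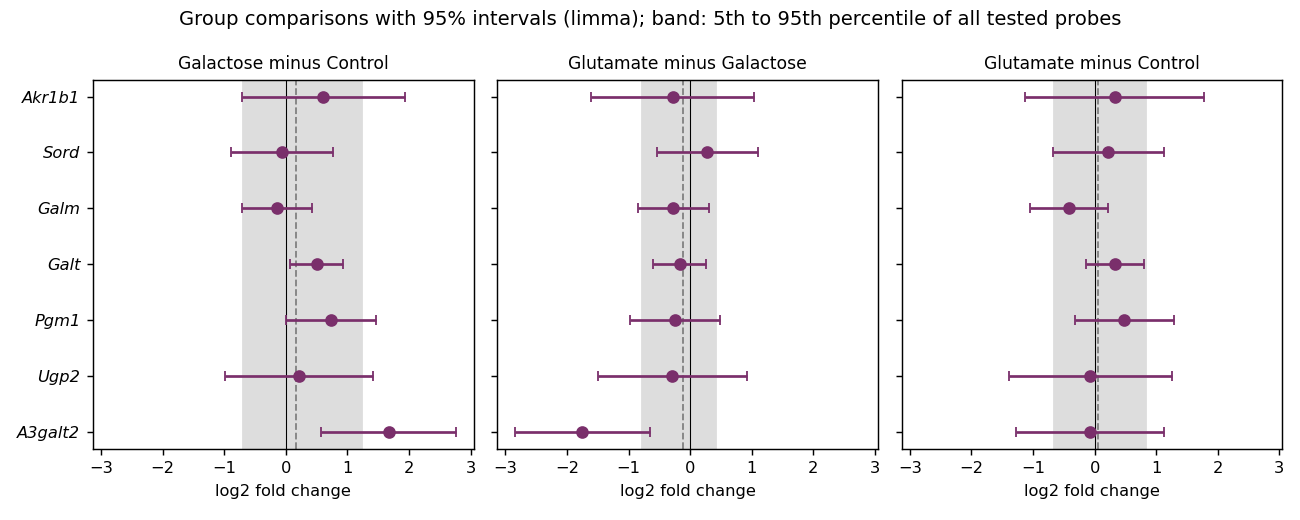
Log2 fold change of each gene in the 3 group comparisons, with 95% intervals from limma. The grey band spans the 5th to 95th percentile of all 5320 tested probes and the dashed line is their median. A3galt2 lies outside the band at 1.67 for Galactose minus Control and at -1.75 for Glutamate minus Galactose, and the other genes lie inside it in both.

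The likeness of other genes to these was measured as Pearson's r over the 7 arrays among 5030 genes above 5 in at least 1 array, and serves as a description only, since the arrays share the gap between the Control arrays. Nearest to A3galt2 were Mmgt1 (r = 0.974), Tmem43 (r = 0.951) and C1h19orf47 (r = 0.948), with 2 genes above 0.95. Nearest to Galt were Cryz, the quinone reductase known as zeta-crystallin (r = 0.973), Tagln (r = 0.966) and Tmem140 (r = 0.961), with 8 genes above 0.95. Galm was nearest to Dpysl2 (r = 0.981), Ddb1 (r = 0.977) and Dgcr2 (r = 0.938), with 2. Akr1b1 was nearest to Xrcc6 (r = 0.991), Fn3krp and Eif5a (r = 0.990 for both), and Pgm1 to Dazap2 (r = 0.991), Urah (r = 0.990) and Rtfdc1 (r = 0.989). Akr1b1 and Pgm1 had 110 and 104 genes above 0.95, far more than A3galt2, Galm and Galt, and their signals were lowest in Control Day 6. Ugp2 was nearest to Tango2 (r = 0.986), Mb21d2 (r = 0.985) and Ube2g1 (r = 0.982), with 61 genes above 0.95, and Sord to Jup (r = 0.988), Eif4enif1 (r = 0.980) and Fastk (r = 0.973), with 8.

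The wider pathway was read from lists of 77 genes, the 8 above among them, that cover the Leloir and polyol pathways, UDP-sugars, glycogen, galactosyltransferases, galactosidases, hexose uptake, NADPH supply and methylglyoxal detoxification. Apart from the 8, 59 of 69 have a probe of their own and 24 were above 5 in at least 1 array. None of the 24 was called in any comparison. With an unadjusted p below 0.05, 3 lay higher in Galactose than in Control (Akr1a1, Gla and Gys1) and 2 lower (Ggta1 and B4galt2), where 11.8% and 5.23% of all probes were. Gla and Gys1 had passed the level of 5 only in Galactose arrays, so that they had to be high there. B4galt2 had passed it only in Control and Glutamate arrays. The counts here and those between Glutamate and Galactose are therefore a description. The median of the 24 was 0.17, like that of all probes. By the same measure 1 (B4galt2) was higher and 1 (Gla) lower in Glutamate than in Galactose (1.13% and 4.4% of all probes), with a median of -0.06.

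Among reductases, Akr1a1, the aldehyde reductase related to aldose reductase, had log2 signals of 7.83 in both Glutamate arrays, between 7.99 and 8.04 in Galactose, and 7.46 and 6.47 in Control Day 4 and Day 6. Galactose and Glutamate both lay above Control, and Galactose was higher by 1.05 (standard error 0.30, adjusted p = 0.185). It was higher by 1.54 against Control Day 6 alone and by 0.55 against Control Day 4 alone. Glo1, the glyoxalase that removes methylglyoxal, had 8.30 and 7.92 in Glutamate, 8.45 to 8.68 in Galactose, and 8.38 and 6.79 in Control Day 4 and Day 6, a difference of 1.01 between Galactose and Control (adjusted p = 0.303). That difference was 1.80 against Control Day 6 alone and 0.22 against Control Day 4 alone. For both genes the lowest array was Control Day 6.

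Gla, the lysosomal alpha-galactosidase that removes the terminal galactose of globo-series glycolipids, had every Galactose array above every other array. So had A3galt2, Galt, Akr1a1, Glo1, Pgm2 and Taldo1, and 11.8% of all probes. It had 4.41 and 4.22 in Glutamate, 4.78 to 5.48 in Galactose, and 4.29 and 3.49 in Control Day 4 and Day 6. Galactose was above Control by 1.26 (adjusted p = 0.157), by 1.65 against Control Day 6 alone and by 0.86 against Control Day 4 alone. Glutamate differed from Galactose by -0.83 (adjusted p = 0.853). Gla passed the level of 5 in 2 Galactose arrays only. Gys1, the glycogen synthase of most tissues, passed it in 1 Galactose array only, with 4.41 and 4.59 in Glutamate, 4.24 to 5.01 in Galactose, and 3.94 and 3.84 in Control, a difference of 0.78 between Galactose and Control (adjusted p = 0.232), with 0.83 and 0.73 against Control Day 6 and Day 4 alone.

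Of the other 5 genes above 5 in the list of galactosyltransferases, none had all Galactose arrays above Control (21.5% of all probes did). That count is a description only, since Ugcg and B4galt2 had passed the level of 5 in no Galactose array. In the same list, B4galt4 and B3galnt1 were at 5 or below in every array and had all Galactose arrays above Control. Ggta1, which adds alpha-galactose to glycoproteins, had 5.27 and 5.21 in Glutamate, 4.78 to 5.05 in Galactose, and 6.24 and 5.64 in Control. Galactose was below Control by a log2 fold change of -1.03 (adjusted p = 0.135). The difference was -0.74 against Control Day 6 alone and -1.33 against Control Day 4 alone. B4galt2, a galactosyltransferase of beta linkages, had 5.17 and 5.44 in Glutamate, 4.59 to 4.91 in Galactose, and 5.37 and 5.25 in Control. It was below Control in Galactose by a log2 fold change of -0.57 and above Galactose in Glutamate by 0.56 (adjusted p = 0.248 and 0.853), and was lower in Galactose by -0.51 and -0.62 against Control Day 6 and Day 4 alone, neither called. Ugcg, which makes the glucosylceramide that lactosylceramide is built on, had 4.42 and 4.74 in Glutamate, 4.56 to 4.74 in Galactose, and 4.81 (Day 4) and 6.68 (Day 6) in Control, and was above 5 only in the last. It differed between Galactose and Control by -1.11 (adjusted p = 0.315), by -2.05 against Control Day 6 alone and by -0.17 against Control Day 4 alone. B4galt3 and B4galt6, also galactosyltransferases of beta linkages, differed by 0.11 and 0.15 (adjusted p = 0.768 and 0.731), with overlapping groups.

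Slc2a1, Pgm2 and Taldo1 had the largest difference between Galactose and Control in their lists when the 8 genes are left out, Pgm1 standing before Pgm2. Slc2a1, the glucose transporter GLUT1, which also carries galactose, had 8.97 and 8.20 in Glutamate, 8.70 to 9.52 in Galactose, and 8.96 and 7.94 in Control, with a difference of 0.77 (adjusted p = 0.360) and overlapping groups. It was 1.28 against Control Day 6 alone and 0.26 against Control Day 4 alone, neither called. Pgm2 and Taldo1, enzymes of pentose phosphates, differed by 0.49 and 0.54 (adjusted p = 0.302 and 0.319), and in both the Galactose arrays lay above Control and above Glutamate. Against Control Day 6 alone the differences were 0.65 for Pgm2 and 0.88 for Taldo1, and against Control Day 4 alone 0.33 and 0.20.

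**Figure D4:**
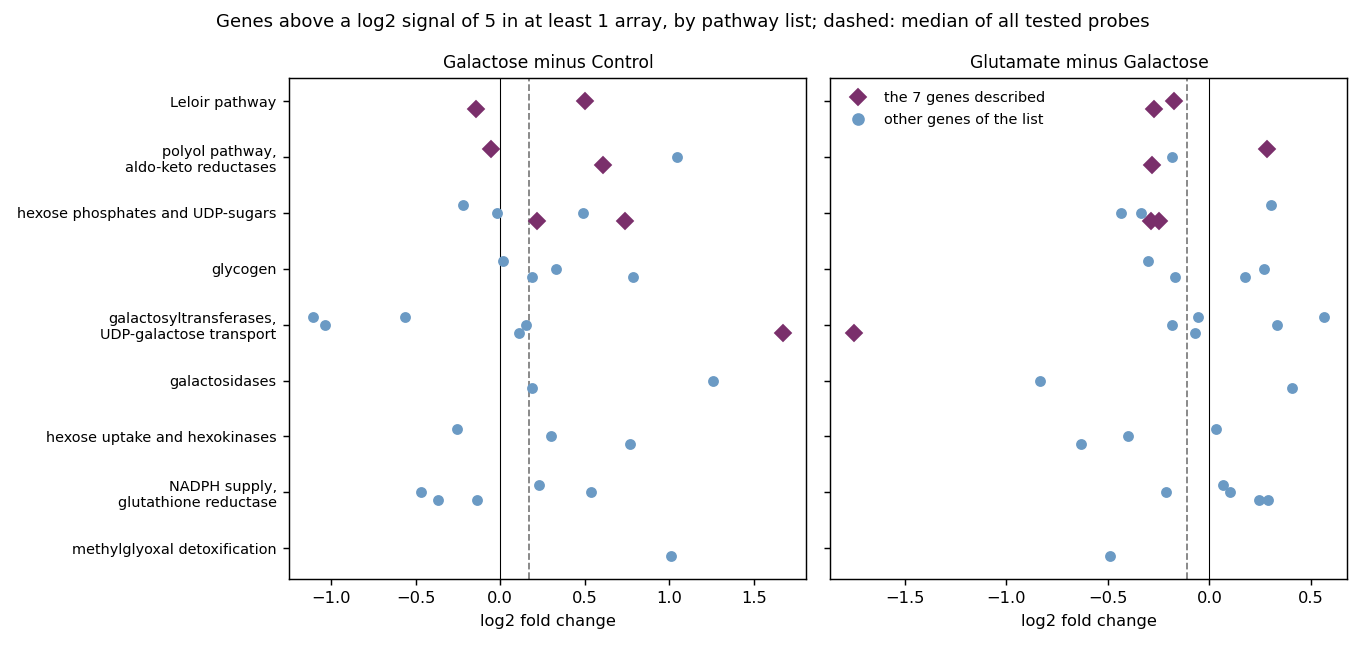
Log2 fold changes of the genes above 5 in at least 1 array, by pathway list, for Galactose minus Control and Glutamate minus Galactose. Diamonds are the 7 genes described, circles the other genes of each list, and the dashed line is the median of all tested probes. A3galt2 lies farthest right in the first comparison and farthest left in the second, and the other galactosyltransferases lie at or below 0.15 in the first.

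Among the 6 markers of the lens epithelium, 2 lay lower in Galactose than in Control in every array (12.1% of all probes did) and neither was called. Of these, Foxe3 had passed the level of 5 only in Control and Glutamate arrays, so that its low place in Galactose is a description. Foxe3, a transcription factor of lens epithelial cells, had 5.85 and 6.05 in Glutamate, 4.07, 4.89 and 4.89 in Galactose, and 6.88 and 6.25 in Control, so that Galactose was below both others, by -1.95 against Control (adjusted p = 0.0896, and 0.0390 after the further quantile normalization and 0.0338 after centring on the median). The water channel Aqp1 had 5.24 in both Glutamate arrays, 4.34, 5.13 and 4.85 in Galactose, and 7.17 and 8.34 in Control (adjusted p = 0.0633 for Galactose against Control, and 0.0338 after centring on the median). Against Control Day 6 alone the differences were -1.64 for Foxe3 and -3.57 for Aqp1, and against Control Day 4 alone -2.27 and -2.39. Pax6, Gja1, Cdh1 and Slc38a3, the other 4 markers of that list, overlapped between Galactose and Control, with higher means in Galactose by 0.12 to 0.47, of which those of Pax6 and Cdh1 turned to -0.11 and -0.26 after the further quantile normalization. Among the 7 fibre markers 3 lay wholly lower in Galactose (12.1% of all probes), namely Bfsp1, Mip and Gja3. Crygs, at 0.15, lay wholly higher (21.5% of all probes). Cryab, Cryba1 and Lim2 overlapped between Galactose and Control, with differences of 0.03, -0.01 and 0.08. Mip, a water channel of lens fibres, had 11.36 and 11.46 in Glutamate, 10.81 to 10.96 in Galactose, and 11.29 and 11.88 in Control, a difference of -0.70 between Galactose and Control (adjusted p = 0.228). Gja3, the gap junction protein alpha-3 of fibres, had 8.45 and 7.62 in Glutamate, 7.29 to 7.61 in Galactose, and 8.71 and 8.67 in Control, a difference of -1.27 (adjusted p = 0.129). Cd68, a macrophage marker, had 4.73 and 5.15 in Glutamate, 4.45 to 4.96 in Galactose, and 3.85 and 3.51 in Control, a difference of 0.96 (adjusted p = 0.173), while Ptprc, Cd74, Aif1, Itgam and Cd14 were at 5 or below in every array. For Mip, Gja3 and Cd68 the differences were -0.996, -1.25 and 1.13 against Control Day 6 alone. Against Control Day 4 alone they were -0.40, -1.29 and 0.79. In whole lenses, fewer cells of a type and less RNA per cell cannot be told apart. Galactose 1 had the lowest mean of the 6 epithelial markers, at 5.73 against 6.80 and 6.90 in the other Galactose arrays, and was also the lowest Galactose array for Akr1b1, Sord, Galt, Galm and Pgm1, as for 46.5% of all probes. The part of these markers in the results above was not tested.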

How the data were processed

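RNA of 7 whole rat lenses cultured with or without galactose and glutamate was measured on GeneChip Rat Gene 2.0 ST arrays. The authors deposited log2 signals of probe sets, normalized over all arrays with the Robust Multi-array Average; software versions are not given in the sources used here. The platform annotation names a gene for 19086 of 36685 probes, namely 1 gene for 18511 and several for 575, and the other 17599 were not used. Symbols updated through the gene ID numbered 0 when set against the RefSeq table of GRCr8.

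Only probes above 5 in at least 1 array were tested, after the study's methods, which gave 5320. A gene with several probes was read on that of highest mean signal. limma 3.58.1 in R 4.3.3 was fitted with group means (4 residual degrees of freedom), and p was adjusted over the 5320 probes (threshold 0.05). Tables and figures used Python 3.11.15 and pandas 2.3.3. The fit was tested on simulated data. The number of arrays limits the precision.

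The genes and lists were chosen with earlier results of these data known. Beside the 8 genes, pathway genes were named where the unadjusted p was below 0.05 between Galactose and Control or between Glutamate and Galactose, or as the largest difference between Galactose and Control in their list, and the 3 genes with the highest r were named for each gene. The single marker genes given with values, and B4galt3 and B4galt6, were chosen after their values were seen, as were those said to be so. Alternatives were other filters, a second quantile normalization, centring on the median, the mean of a gene's probes, another variance model, array weights, fewer arrays in the fit, the replicate number as a block, and leaving out each array in turn. The second quantile normalization without either Control array was added after the data had been seen.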

Additional observations from a re-analysis of the deposited data

How the results depend on the processing

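Of 344 repeats of the comparisons of the 7 genes under other settings, 312 kept the direction and the side of the threshold, 10 kept the direction and passed the threshold where the fit with all arrays did not, 0 lost it and 22 changed direction. For Galt, Pgm1 and A3galt2 between Galactose and Control, and for all genes but Akr1b1 between Glutamate and Galactose, the direction was kept in every setting run. Some settings leave both group means of a gene as they are and could not change a direction. They are no filter, the filter on the mean, the mean of a gene's probes, another variance model, and fits without arrays of the third group. The same holds for the named pathway and marker genes below. The number of probes called between Galactose and Control, 5 with all arrays, was 0 with no filter, 3 with the filter on the mean, 20 after the second quantile normalization, 45 after centring on the median, 0 with array weights and 1 with only the arrays compared. Array weights gave 1 probe between Glutamate and Galactose, and both rescalings gave 1 between Glutamate and Control, in place of 0. With 1 array left out at a time, the calls between Galactose and Control ranged between 0 and 1717 probes and 0 and 4 of the 7 genes, those between Glutamate and Control between 0 and 880 probes and 0 and 2 of the 7 genes (Ugp2 and A3galt2, without Control Day 4), and those between Glutamate and Galactose stayed at 0. The fits that moved these counts most left out a Control array, and the cause was not tested.

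With 1 array left out, the difference between Galactose and Control ranged from -0.33 to 1.55 for Akr1b1, from -0.51 to 0.40 for Sord, from -0.30 to 0.0155 for Galm and from -0.73 to 1.17 for Ugp2. That between Glutamate and Control ranged from -0.62 to 1.27 for Akr1b1, from -0.23 to 0.68 for Sord, from -1.02 to 0.88 for Ugp2 and from -0.92 to 0.76 for A3galt2, and that between Glutamate and Galactose from -0.67 to 0.10 for Akr1b1. Array weights turned Sord to 0.09 between Galactose and Control. After the second quantile normalization, without Control Day 4 the calls were 1861 probes and 2 of the 7 genes (Pgm1 and Ugp2) between Galactose and Control and 1069 probes and 2 genes (Ugp2 at 0.81 and A3galt2 at -1.25) between Glutamate and Control, and Sord was at 0.26 between Galactose and Control. Without Control Day 6 they were 20 probes and 1 gene (A3galt2), and 2 probes and 0 genes, with Akr1b1 at -0.30, Galm at 0.066 and Ugp2 at -0.67 between Galactose and Control, and Akr1b1 at -0.34, Sord at -0.10 and A3galt2 at 0.86 between Glutamate and Control. The median log2 fold change of all probes between Galactose and Control was 0.17 as deposited and 0.005 after the second quantile normalization, and single genes moved by more than that shift: Akr1b1 was at 0.61 as deposited and 0.22 after it, and Galm against Control Day 6 alone at -0.30 and -0.75. For 15 named pathway and marker genes, 256 of 282 repeats kept the direction and the side of the threshold, 26 kept the direction and passed the threshold, and 0 changed direction. These genes were picked by their values in the same arrays, so the kept directions are a description only. Pax6 and Cdh1, which are not among the 15, changed sign after the second quantile normalization, to -0.11 and -0.26.

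Between Galactose and Glutamate arrays of equal replicate number, deviations from the group mean had correlations of -0.03 and 0.06. The deviations of the 2 Glutamate arrays mirror each other, so these values cannot tell whether the arrays were paired. With the replicate number as a block, 0 probes were called between Glutamate and Galactose, as without it, and the difference of A3galt2 was -1.66 (adjusted p = 0.648).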

Other observations

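B3galnt1, whose product extends globo-series glycolipids with N-acetylgalactosamine, was at 5 or below in every array and was picked after its values were seen. It had log2 signals of 3.78 and 4.35 in Glutamate, 4.55, 4.81 and 4.84 in Galactose, and 3.40 and 4.08 in Control Day 4 and Day 6. Every Galactose array lay above every other array, an order that 11.8% of the 5320 tested probes had. In the fit with no filter, Galactose differed from Control by 0.999 on the log2 scale (adjusted p = 0.336) and Glutamate from Galactose by -0.67 (adjusted p = 0.927). Pgm2l1, which makes glucose 1,6-bisphosphate, the cofactor of Pgm1, was also at 5 or below throughout and was picked after its values were seen. It had 3.70 and 3.17 in Glutamate, 3.34 to 3.57 in Galactose, and 4.22 and 4.50 in Control, and Galactose differed from Control by -0.93 (adjusted p = 0.255).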
